A study of Mus musculus with 12 samples.

Results

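The 42 genes described here encode the machinery that carries a secretory protein into the endoplasmic reticulum (ER), folds it there, removes it when folding fails and reports the folding state to the nucleus. They were listed by symbol and matched to 42 of the 27179 genes of the count table, with 16 genes of translocation, 15 of folding, 7 of degradation and 4 of sensing. RNA sequencing counted reads per gene in luminal cells, the inner epithelial layer of the mammary gland, which makes milk, and in the basal cells around them, which include the contractile myoepithelium. Each cell type was sorted by flow cytometry from wild-type FVB/N female mice that were virgin, at day 18.5 of pregnancy or at day 2 of lactation. With 2 mice per stage there were 6 groups of 2 libraries, untreated, and no age of the mice is given in the labels.

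A protein bound for secretion is recognised by the signal recognition particle as it leaves the ribosome, enters the ER through the Sec61 channel and loses its signal peptide to the signal peptidase. Chaperones of the HSP70 and HSP90 families, the lectins calnexin and calreticulin and the disulfide isomerases then fold it, and proteins that stay misfolded are sent back to the cytosol for degradation. When the load exceeds the folding capacity, the sensors IRE1 (Ern1), PERK (Eif2ak3) and ATF6 start the unfolded protein response, in which IRE1 splices the mRNA of the transcription factor XBP1. In the mammary gland this machinery handles the milk proteins. Gene counts do not separate spliced from unspliced Xbp1 mRNA, so the counts give its level and not its activation.

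Library totals lay between 20.02 M and 24.72 M counts, and each of the 42 genes had enough counts for a test. Levels are counts relative to the library total, scaled by the trimmed mean of M-values (TMM-scaled CPM), which sets the bulk of genes equal between libraries. Transcripts of 12 milk proteins took 1.48% and 1.5% of the counts of virgin, 19.1% and 22.0% of pregnant and 51.2% and 49.9% of lactating luminal libraries, against 0.0453% to 0.755% in basal libraries. All other transcripts together therefore have a smaller share of a lactating luminal library, and each change below is relative to the bulk of genes. The 10 basal markers summed to 96 to 444 CPM in luminal libraries, against 19200 and 19700 (virgin), 39200 and 49800 (pregnant) and 50500 and 58900 CPM (lactating) in basal ones. The 10 luminal markers summed to 11400 and 11700, 8350 and 10000, and 4830 and 5420 CPM in luminal libraries of these stages, against 1130 to 1740 CPM in basal ones. Both labels thus match their marker sums, while each cell type's own marker sum moved with stage, and the part of this in the changes below was not tested. Of the luminal markers, Pgr was lower in luminal than in basal libraries in pregnancy (6.81 and 6.11 against 19.7 and 21.1 CPM) and lactation (3.36 and 2.96 against 28.5 and 27.9). Krt8 overlapped in lactation (1030 and 702 against 921 and 720 CPM). Each other luminal marker was higher in luminal libraries at every stage. In bulk samples, fewer cells of a type and less RNA per cell cannot be told apart. The luminal libraries ran in lane 1 and the basal ones in lane 2, so cell type and lane cannot be told apart either. Nothing in the labels ties each library to a separate animal beyond the 2 mice per stage, and p-values measure the spread between these libraries.

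A promoter element of the ER stress response stood in a subset of the folding and degradation genes, and it is shown first. The ER stress response element (ERSE), which NF-Y and ATF6 or XBP1 are known to bind, reads CCAAT, then 9 bases of any kind, then CCACG. RefSeq promoters of GRCm38.p6, from 250 bases before to 50 bases after the annotated start, were at hand for 34 of the 42 genes, and both strands were searched. An ERSE stood in 9 of the 34 genes (26.5%), against 0.137% of 27025 genes with a promoter in the table (0.119% of its 32851 promoters). The genes were listed as genes of the ER and its stress response, the response that the element is named for. A high share therefore follows from the choice of genes, and the contrast is a description and no test. The ERSE was present in 7 of 13 folding and 2 of 6 degradation genes, and in 0 of 12 translocation and 0 of 3 sensor genes. The related element ERSE-II (ATTGG, 1 base of any kind, then CCACG) stood upstream of Herpud1 and after the start of Dnajb11, and was present in 0.0444% of all genes. The element UPRE (TGACGTGG) was found in 0 of the 34 genes and 0.714% of all genes. The stretches around the upstream matches are listed next on the coding strand of each gene, 5′ to 3′. Capitals mark the 5-base ends of each element (CGTGG and ATTGG where the element lies on the other strand).
Hspa5: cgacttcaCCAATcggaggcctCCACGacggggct
Hsp90b1: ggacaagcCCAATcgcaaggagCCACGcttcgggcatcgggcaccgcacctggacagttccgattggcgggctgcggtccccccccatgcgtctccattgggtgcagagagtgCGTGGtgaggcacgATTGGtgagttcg
Calr: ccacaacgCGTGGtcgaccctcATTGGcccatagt
Canx: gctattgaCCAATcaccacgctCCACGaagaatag
Pdia6: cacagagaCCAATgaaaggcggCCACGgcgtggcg
Dnajc3: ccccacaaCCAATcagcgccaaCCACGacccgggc
Creld2: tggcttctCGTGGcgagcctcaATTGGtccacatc
Syvn1: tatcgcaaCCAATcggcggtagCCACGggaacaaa
Derl3: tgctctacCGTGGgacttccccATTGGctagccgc
Herpud1: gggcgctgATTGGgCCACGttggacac

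On GRCm38.p6 these stretches lie at chr2:34772017-34772051 (plus strand, Hspa5), chr10:86705525-86705664 (minus, Hsp90b1), chr8:84847067-84847101 (minus, Calr), chr11:50325792-50325826 (minus, Canx) and chr12:17266483-17266517 (plus, Pdia6). The others lie at chr14:118937819-118937853 (plus, Dnajc3), chr15:88819512-88819546 (plus, Creld2), chr19:6046524-6046558 (plus, Syvn1), chr10:75893234-75893268 (plus, Derl3) and chr8:94386369-94386395 (plus, Herpud1). All 10 end upstream of the annotated start of their gene, and the stretch of Hsp90b1 holds 2 elements. A match is a run of letters in a window and no measurement of binding.

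In luminal cells nearly the whole set stood higher in lactation than in virgin mice, relative to the bulk of genes. The increase passed the test (edgeR quasi-likelihood F-test, Benjamini-Hochberg adjusted p below 0.05) in 38 of 42 genes, and 1 gene, Ern1, fell. Over all 15969 genes tested, 26.7% were called higher and 33.5% lower. The median log2 change of the 42 genes was 1.00, against -0.15 for all genes tested. Scaled by library size alone, with the milk transcripts left in the total, the direction of the set flips, with 8 genes called higher, 21 lower and a median of -0.36. That scaling moved the median of all genes by -1.36 on the log2 scale, and 40 of the 42 genes stood above the median gene under either scaling. A change of scaling shifts all genes by about the same amount, so this count could hardly differ and is no separate support. Scaled by library size after removal of the 12 milk protein genes, 26 genes were called higher and 2 lower, with a median of 0.64. As raw shares, the 42 genes together took 0.838% and 0.875% of all counts in virgin and 0.688% and 0.703% in lactating luminal libraries. Of the counts outside the milk protein genes they took 0.851% and 0.888% in virgin and 1.41% and 1.4% in lactating ones.

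**Figure D1:**
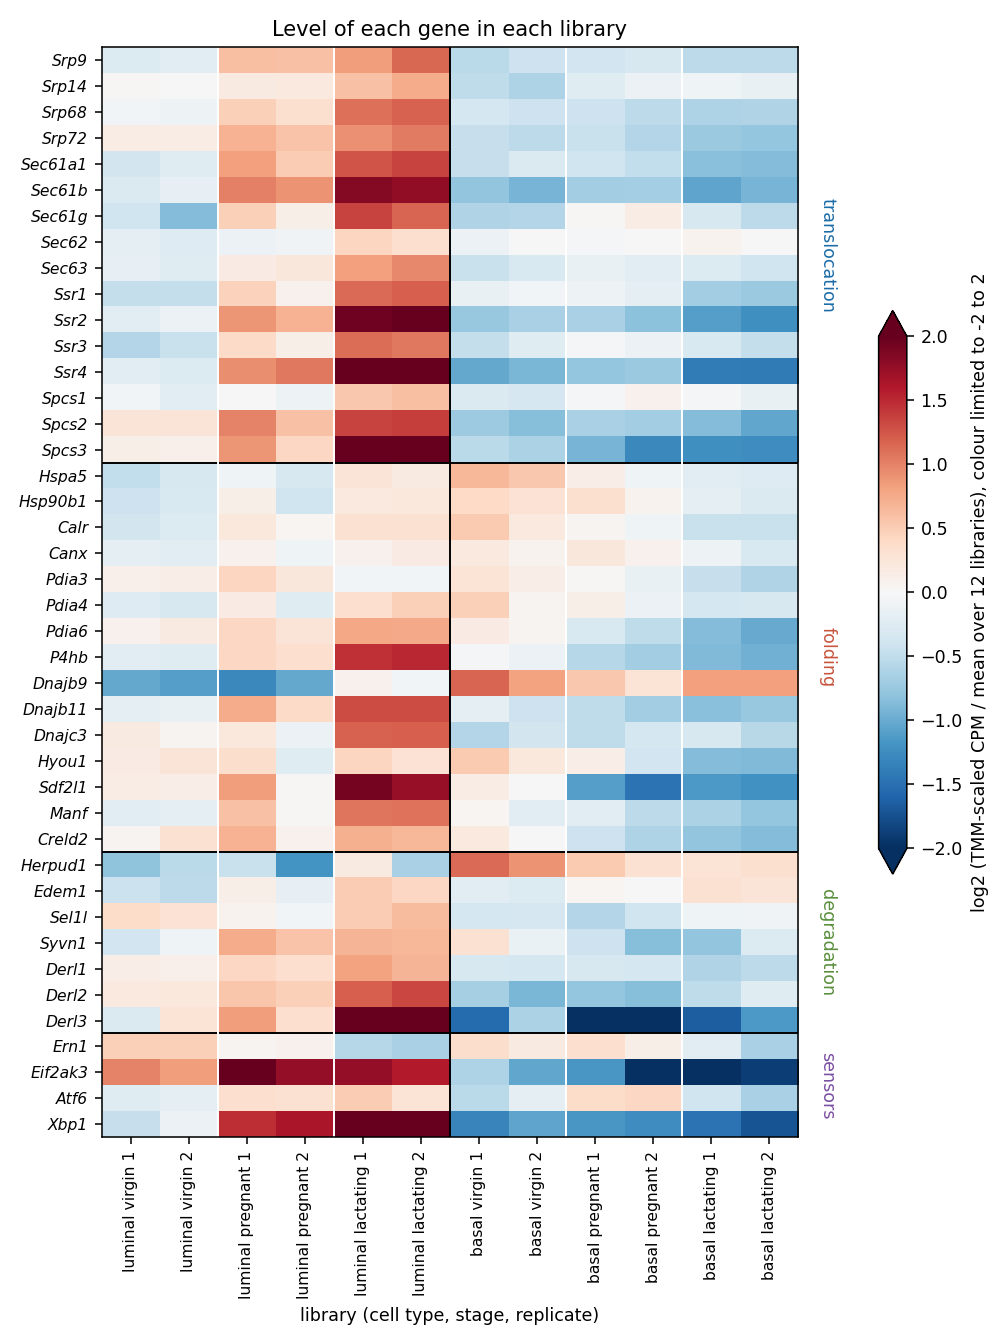
Level of the 42 genes (rows, by role) in the 12 libraries (columns), as log2 of TMM-scaled CPM over the gene's mean in all 12 libraries, with colours limited to -2 to 2. The lactating luminal columns are red for nearly all rows, most deeply in translocation, while most folding rows are red in the virgin basal columns and blue in the lactating basal ones. The colours hold for TMM scaling, and with library size alone 8 genes were called higher and 21 lower in lactating than in virgin luminal cells.

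Translocation was the only role in which every gene was called higher in lactating than in virgin luminal cells. All 16 genes rose in luminal cells from virgin to lactating mice, with a median log2 change of 1.42 and a range of 0.59 to 2.64, whereas with library size alone 5 of the 16 were called higher and 5 lower. The TRAP complex, which sits beside the channel and assists the entry of some proteins, had changes of 1.60 to 2.64 in its 4 subunits. The 3 subunits of the Sec61 channel had changes of 1.61 to 2.02, and the 4 proteins of the signal recognition particle had smaller ones, from 0.65 to 1.25. Sec62 (0.59) and Sec63 (1.09), which serve entry after translation and the contact with BiP, had smaller changes than any Sec61 subunit.

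In luminal libraries Ssr4, the delta subunit of TRAP, measured 85.9 and 81.8 CPM (virgin), 189 and 206 (pregnant) and 529 and 516 (lactating), and 48.7 and 52.7, 58.2 and 59.2, and 37.7 and 37.3 in the basal libraries of the same stages. The luminal stages did not overlap, and every luminal library lay above every basal one. The luminal increase from virgin to lactating mice was 2.64 (SE 0.10, adjusted p = 7.26e-10), the largest among the translocation genes, and the basal level fell by 0.43 (SE 0.10, adjusted p = 0.00274).

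Ssr2, the beta subunit, measured 123 and 131 CPM (virgin), 262 and 231 (pregnant) and 549 and 579 (lactating) in luminal libraries, against 83.9 and 91.3, 90.5 and 80.7, and 66.5 and 60.9 in basal ones. Ssr1, the alpha subunit, measured 112 and 112, 214 and 166, and 341 and 355 CPM in luminal and 141 and 150, 145 and 137, and 96.6 and 93 CPM in basal libraries. For Ssr1 the virgin basal libraries lay above the virgin luminal ones, and the order was the opposite in lactation. Ssr3, the gamma subunit, rose in luminal cells by 1.60 (SE 0.13) and its basal change of -0.04 (SE 0.13) did not pass the test.

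Spcs3, a subunit of the signal peptidase, measured 40.9 and 40.4 CPM (virgin), 69.7 and 50.4 (pregnant) and 173 and 167 (lactating) in luminal libraries, against 25.9 and 24.3, 19.9 and 15.5, and 16.2 and 16 in basal ones. Its luminal change was 2.06 (SE 0.15, adjusted p = 1.31e-07), while those of Spcs1 and Spcs2, subunits of the same enzyme, were 0.70 (SE 0.10) and 1.11 (SE 0.12). These 3 changes lay further apart than their standard errors, and the differences among them were not tested.

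Sec61a1, the pore of the channel, measured 215 and 235 CPM (virgin), 487 and 394 (pregnant) and 665 and 709 (lactating) in luminal libraries, against 202 and 226, 210 and 198, and 155 and 152 in basal ones. The 2 cell types overlapped in virgin mice and stood 2.16 apart on the log2 scale in lactation. Sec61b, a small subunit of the channel, measured 22.3 and 24.3, 54.7 and 50.3, and 96.6 and 92.7 CPM in luminal and 15.7 and 14.3, 16.8 and 16.9, and 13 and 14.3 CPM in basal libraries. Srp72, a protein of the signal recognition particle, measured 121 and 121, 177 and 161, and 206 and 223 CPM in luminal and 79.5 and 76.2, 79.9 and 72.7, and 64.9 and 63.9 CPM in basal libraries. The basal decrease of Srp72 (-0.27, SE 0.10, adjusted p = 0.0341) was lost without any 1 of the 4 basal libraries compared (adjusted p 0.0581 to 0.126). Srp9, Sec61b, Sec61g, Ssr2, Spcs2 and Derl1 have near-identical copies elsewhere (at least 95% identity over at least 200 bases), so their counts are uncertain where reads could be split.

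**Figure D2:**
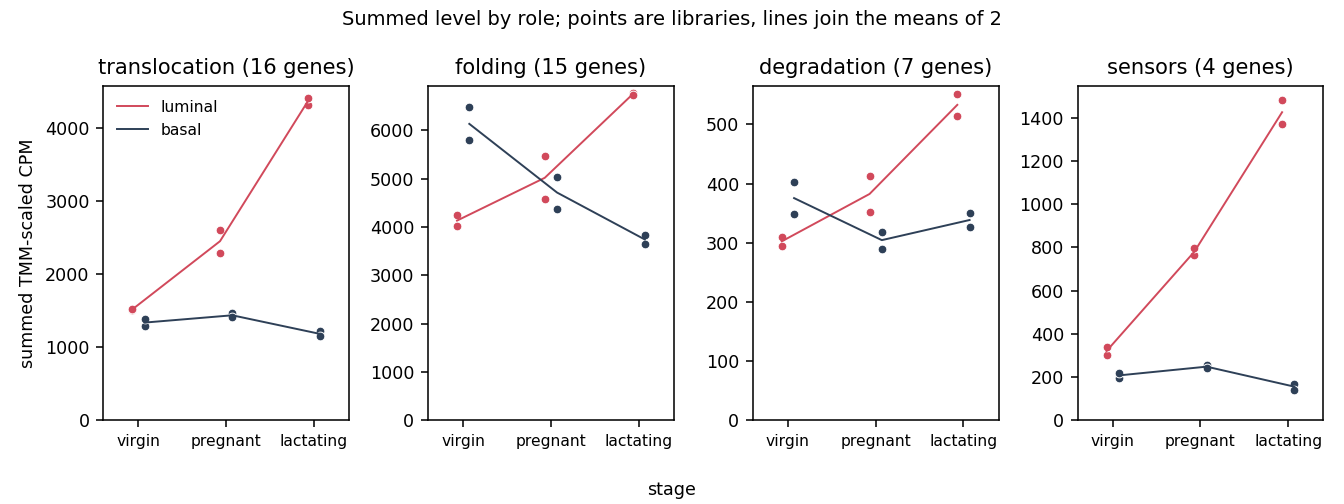
Summed TMM-scaled CPM of the genes of each role (vertical axis from 0) by stage, with 1 point per library and lines joining the means of 2 luminal (red) or basal (dark) libraries. Luminal sums of translocation went from 1510 and 1530 CPM to 4320 and 4420, and basal sums of folding from 6470 and 5790 CPM to 3830 and 3650. As shares of all counts, luminal translocation went from 0.206% and 0.209% to 0.229% and 0.237% and luminal folding from 0.55% and 0.578% to 0.358% and 0.36%.

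The folding genes rose less than the translocation genes in luminal cells and fell together in basal cells. From virgin to lactating mice 13 of 15 rose in luminal cells, with a median log2 change of 0.63 and a range of -0.17 to 1.71, a direction that flips under library size alone (1 called higher, 9 lower, median -0.73). In basal cells 13 of 15 fell and 0 rose (23.7% of all genes were called lower and 23.7% higher), with a median of -0.74, and 11 genes rose in luminal and fell in basal cells. With library size after removal of the milk protein genes 6 were called higher and 1 lower in luminal cells, with a median of 0.26. The summed level of the 15 genes was lower in luminal than in basal libraries of virgin mice (4020 and 4240 against 6470 and 5790 CPM) and higher in lactation (6760 and 6720 against 3830 and 3650 CPM), but as a share of all counts the lactating order was the opposite, at 0.358% and 0.36% in luminal against 0.397% and 0.397% in basal libraries.

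P4hb, a protein disulfide isomerase, had the largest luminal change of the folding genes. It measured 374 and 370 CPM (virgin), 583 and 554 (pregnant) and 1200 and 1240 (lactating) in luminal libraries, against 426 and 404, 295 and 270, and 237 and 225 in basal ones. The luminal change was 1.71 (SE 0.11, adjusted p = 3.92e-08) and the basal change -0.85 (SE 0.11, adjusted p = 4.71e-05), with no overlap of stages in either cell type.

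The other disulfide isomerases had smaller luminal changes. Pdia6 measured 216 and 232, 273 and 245, and 349 and 344 CPM in luminal and 228 and 211, 166 and 144, and 112 and 101 CPM in basal libraries. Pdia4 measured 77.7 and 74.4, 104 and 78.8, and 117 and 130 CPM in luminal and 129 and 96.7, 101 and 85.5, and 73.1 and 74.3 CPM in basal libraries. Pdia3, the isomerase that works with calnexin and calreticulin, had 558 and 569 CPM (virgin), 700 and 611 (pregnant) and 499 and 503 (lactating) in luminal libraries. Its change from virgin to lactating mice did not pass the test (-0.17, SE 0.12, adjusted p = 0.229), and from pregnancy to lactation it fell by 0.39 (SE 0.12, adjusted p = 0.0153). That decrease was lost without luminal pregnant replicate 1 (adjusted p = 0.13), luminal lactating replicate 1 (0.105) or luminal lactating replicate 2 (0.0946). With library size after removal of the milk protein genes, the change of Pdia3 from virgin to lactating mice was -0.54 and passed the test (adjusted p = 0.0021).

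Hspa5 encodes BiP, the HSP70 chaperone of the ER and the classical target of the unfolded protein response. It measured 1010 and 1130 CPM (virgin), 1340 and 1140 (pregnant) and 1690 and 1600 (lactating) in luminal libraries, against 2240 and 2060, 1560 and 1330, and 1210 and 1190 in basal ones. Virgin luminal cells thus lay below virgin basal ones (luminal against basal -1.01, SE 0.14, adjusted p = 3.3e-05), and in lactation the order was the opposite (0.45, SE 0.13, adjusted p = 0.00869). Under library size alone the lactating difference of Hspa5 was -0.54, so its direction flips with the scaling. The luminal increase from virgin to lactating mice was 0.62 (SE 0.14, adjusted p = 0.00154) and fell short of the threshold without the milk protein genes in the library size (0.25, adjusted p = 0.137).

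Hsp90b1, the HSP90 of the ER, measured 521 and 562, 754 and 528, and 798 and 806 CPM in luminal and 913 and 853, 867 and 729, and 610 and 572 CPM in basal libraries. Calr, the lectin calreticulin, measured 431 and 460, 646 and 569, and 686 and 685 CPM in luminal and 797 and 635, 580 and 521, and 408 and 406 CPM in basal libraries. Canx, the membrane-bound lectin calnexin, measured 295 and 293, 358 and 318, and 358 and 380 CPM in luminal and 386 and 355, 394 and 361, and 315 and 274 CPM in basal libraries. For all 3 genes the virgin basal libraries lay above the virgin luminal ones and, on this scale, the lactating basal libraries below the lactating luminal ones. The lactating difference, luminal against basal, was 0.44 for Hsp90b1 (adjusted p = 0.0219), 0.75 for Calr (0.000164) and 0.32 for Canx (0.0204), and under library size alone it flips to -0.55, -0.24 and -0.67. That of Hsp90b1 was lost without luminal lactating replicate 2 (adjusted p = 0.0562), basal lactating replicate 1 (0.0502) or basal lactating replicate 2 (0.105), and that of Canx without luminal lactating replicate 2 (0.0787) or basal lactating replicate 2 (0.16). The luminal increase of Hsp90b1 (0.57) was lost without luminal virgin replicate 1 (adjusted p = 0.0507), and that of Canx (0.33) without luminal virgin replicate 1 (0.0849), luminal virgin replicate 2 (0.0959) or luminal lactating replicate 2 (0.104). The basal decrease of Canx (-0.33) was lost without basal virgin replicate 1 (adjusted p = 0.139) or basal lactating replicate 2 (0.205), that of Hsp90b1 (-0.58) without basal lactating replicate 2 (0.061), and that of Pdia4 (-0.61) without basal virgin replicate 1, at a value of -0.39 (0.0729).

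Sdf2l1, which assists BiP and the J proteins, moved furthest apart between the cell types among the folding genes. It measured 17.1 and 16.9 CPM (virgin), 27.5 and 15.7 (pregnant) and 58.5 and 51.7 (lactating) in luminal libraries, against 17.2 and 15.5, 7.2 and 5.56, and 6.95 and 6.67 in basal ones. The cell types overlapped in virgin mice, and the luminal change exceeded the basal one by 2.96 (SE 0.30, adjusted p = 6.11e-06). The pregnant luminal libraries stood apart, with replicate 2 below both virgin libraries. Replicate 2 was the lower of its pair in 14 of the 15 folding genes in pregnant luminal libraries, and likewise in 14 of 15 in virgin and 14 of 15 in pregnant basal libraries. It was the lower in 6 of 15 in virgin luminal, 7 in lactating luminal and 12 in lactating basal libraries. The share of all genes with this order was not counted, so a shift of the whole library cannot be told apart.

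Dnajb11, a J protein that delivers clients to BiP, measured 60.8 and 62.9, 117 and 90.8, and 173 and 173 CPM in luminal and 61.3 and 52.5, 48.8 and 43.2, and 39.1 and 41.1 CPM in basal libraries. Manf, a secreted protein of the stress response, measured 75.1 and 76.6, 131 and 88.6, and 183 and 186 CPM in luminal and 89.4 and 74.7, 74.7 and 60.9, and 56.2 and 51 CPM in basal libraries. Creld2, another small stress-induced ER protein, measured 32.1 and 38.3, 50.4 and 32.9, and 50.7 and 49.2 CPM in luminal and 35.7 and 30.8, 23.4 and 20.3, and 17.9 and 17 CPM in basal libraries. The 3 genes had similar levels in both cell types of virgin mice and 1.52 to 2.11 between them on the log2 scale in lactation. The luminal increase of Creld2 (0.50) was lost without luminal virgin replicate 1 (adjusted p = 0.152), luminal lactating replicate 1 (0.0726) or luminal lactating replicate 2 (0.0558). The basal decreases of Dnajb11 (-0.51) and Manf (-0.61) were lost without basal virgin replicate 1 (adjusted p = 0.0566 and 0.0711), and that of Manf also without basal lactating replicate 2 (0.0692).

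Dnajb9, a J protein known to act on IRE1, was lower in luminal than in basal cells at every stage. It measured 50.1 and 47.4, 41.9 and 50.1, and 108 and 98.6 CPM in luminal and 230 and 178, 149 and 124, and 180 and 181 CPM in basal libraries. The luminal level was below the basal one by -2.06 (SE 0.14) on the log2 scale in virgin and -0.80 (SE 0.14, adjusted p = 0.000179) in lactating mice. Its luminal change lay between pregnancy and lactation, as did that of Dnajc3, which is known to inhibit PERK and to act as a co-chaperone and measured 155 and 142, 159 and 127, and 312 and 313 CPM in luminal libraries. Hyou1, an exchange factor of BiP, did not pass the test in luminal cells (0.15, SE 0.19, adjusted p = 0.513) and fell in basal cells from 194 and 157 CPM in virgin to 73.8 and 73.1 in lactating mice (-1.26, SE 0.20, adjusted p = 0.000249).

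Changes of genes with and without an ERSE can be set side by side. Over the 9 genes with the element the median log2 change from virgin to lactating mice was 0.62 in luminal and -0.62 in basal cells, against 1.08 and -0.18 for the 25 genes whose promoter lacks it. Among folding and degradation genes alone, the 10 without the element had medians of 1.00 and -0.56. Both groups without an ERSE include Herpud1 and Dnajb11, which hold an ERSE-II. Only exact matches within the searched window counted, so an inexact or more distant element would be missed. The medians are descriptions with no test.

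**Figure D3:**
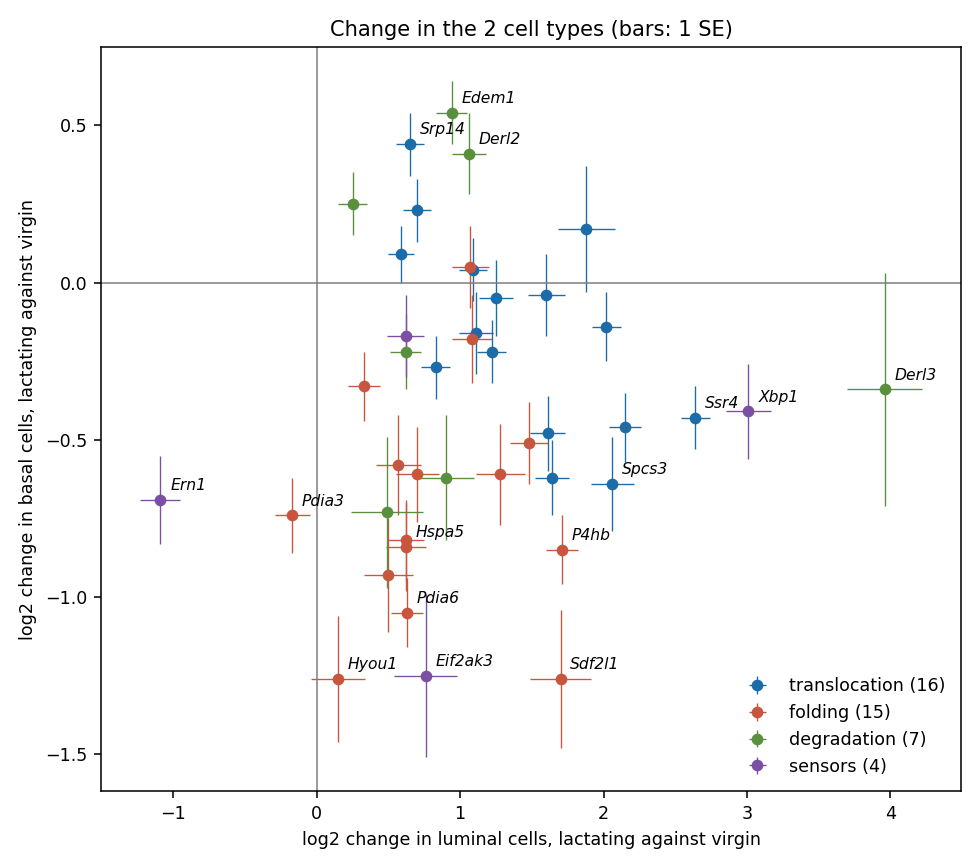
Log2 change from virgin to lactating mice in luminal cells (horizontal axis) against that in basal cells (vertical axis) for the 42 genes, coloured by role, with bars of 1 SE. Translocation genes spread to the right at basal changes of -0.64 to 0.44 (median -0.15). Of these 16 genes 6 were called lower and 1 higher in basal cells, against 23.7% of all genes for either direction. Folding genes lie lower as a group (basal median -0.74). Derl3 (3.96) and Xbp1 (3.01) lie farthest to the right, while with library size alone the luminal median of the 42 genes is -0.36.

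Of the 7 degradation genes 6 rose in luminal cells from virgin to lactating mice, with a median log2 change of 0.90, whereas with library size alone 1 was called higher and 4 lower, with a median of -0.46. In basal cells 3 of the 7 rose and 2 fell, against 23.7% of all genes called higher and 23.7% lower, and the lower share of 2 in 7 lay near that of all genes. The basal median of -0.22 became 0.16 without basal virgin replicate 2.

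Derl3, a derlin that serves the export of misfolded proteins in secretory cells, lies at positions 75893398 to 75895941 of chromosome 10 on GRCm38.p6. It measured 2.08 and 3.07 CPM (virgin), 4.52 and 3.20 (pregnant) and 43.5 and 37.2 (lactating) in luminal libraries, and 0.590 to 1.63 CPM in the 6 basal ones. Per kilobase of gene length Derl3 had the lowest level of the 42 genes in virgin and pregnant luminal cells, at 1.93 and 2.89 CPM. The luminal increase fell almost wholly between pregnancy and lactation, by 3.38 (SE 0.26, adjusted p = 6.92e-07), and the step before it was 0.59 (SE 0.28, adjusted p = 0.104). From virgin to lactating mice the change was 3.96 (SE 0.26, adjusted p = 7.12e-08), a 15.6-fold increase and the largest of the 42. The virgin difference between the cell types (1.06, adjusted p = 0.00983) was lost without luminal virgin replicate 2 (0.75, adjusted p = 0.102) or basal virgin replicate 1 (0.66, adjusted p = 0.106).

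Derl2 measured 24.7 and 24.8, 31.4 and 29.9, and 49.3 and 54.1 CPM in luminal and 13.5 and 11.4, 12.5 and 11.9, and 15.1 and 18.1 CPM in basal libraries. Edem1, a lectin that marks glycoproteins for removal, measured 69.3 and 64.7, 101 and 83.3, and 133 and 124 CPM in luminal and 79.3 and 76.9, 96.1 and 92.3, and 115 and 111 CPM in basal libraries. Both rose in both cell types from virgin to lactating mice. The basal increase of Derl2 (0.41) was lost without basal virgin replicate 2 (adjusted p = 0.141) or basal lactating replicate 2 (0.169). Edem1 rose by 0.40 more in luminal than in basal cells (adjusted p = 0.0378), a difference lost without any 1 of 7 libraries (adjusted p 0.0531 to 0.121), namely both luminal virgin, both basal virgin and both basal lactating libraries and luminal lactating replicate 1.

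Syvn1, the ubiquitin ligase HRD1, measured 66.2 and 81.2, 144 and 128, and 139 and 137 CPM in luminal and 107 and 78.7, 64.9 and 47.7, and 50 and 71.4 CPM in basal libraries. Its luminal level was thus at its lactating height by day 18.5 of pregnancy. The basal decrease (-0.62, adjusted p = 0.0203) was lost without basal virgin replicate 1 (-0.38, adjusted p = 0.19) or basal lactating replicate 1 (-0.39, adjusted p = 0.196).

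Sel1l, the partner of HRD1, measured 78.9 and 74.7, 63.9 and 58.8, and 87.1 and 95 CPM in luminal libraries. It fell from virgin to pregnant mice (-0.32, SE 0.10, adjusted p = 0.0158), a call lost without luminal virgin replicate 1 or luminal pregnant replicate 2 (adjusted p = 0.103 in either), and rose from pregnancy to lactation (0.57, SE 0.10, adjusted p = 0.000432). The increases of Sel1l from virgin to lactating mice, 0.25 in luminal (adjusted p = 0.0451) and 0.25 in basal cells (0.0491), lay at the threshold and were lost with the replicate number as a block (adjusted p = 0.0517 and 0.0553). The luminal one was also lost without luminal virgin replicate 1 (0.0831) or 2 (0.204), luminal lactating replicate 2 (0.192) or any 1 of the virgin or lactating basal libraries (0.0502 to 0.0587). The basal one was lost without any 1 of 10 libraries, all but the pregnant luminal ones (0.0502 to 0.144).

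Herpud1, a stress-induced component of the HRD1 complex, measured 36.5 and 43.9, 47.1 and 28, and 72.1 and 40.5 CPM in luminal and 140 and 119, 91.4 and 79.1, and 77.5 and 79.3 CPM in basal libraries. Lactating luminal replicate 2 lay among the virgin libraries and replicate 1 above them, and the luminal change (0.49, SE 0.25, adjusted p = 0.114) passed the test without lactating replicate 2 (0.87, adjusted p = 0.0101). The basal decrease (-0.73, adjusted p = 0.0276) was lost without basal virgin replicate 1 (0.131), basal lactating replicate 1 (0.115) or basal lactating replicate 2 (0.102). In lactating mice the luminal level lay below the basal one by -0.48 (adjusted p = 0.102), and this difference passed the test with the replicate block (-0.51, adjusted p = 0.0477), with a block by mouse (-0.52, adjusted p = 0.0208) and without luminal lactating replicate 1 (-0.91, adjusted p = 0.00787).

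The 4 genes of sensing did not move together. In luminal cells Xbp1, Eif2ak3 and Atf6 rose from virgin to lactating mice and Ern1 fell, and under library size alone Xbp1 was called higher and the other 3 lower.

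Xbp1 lies at positions 5520641 to 5525993 of chromosome 11 on GRCm38.p6. It measured 132 and 168 CPM (virgin), 509 and 568 (pregnant) and 1130 and 1270 (lactating) in luminal libraries, and 73.3 and 88.0, 81.6 and 77.4, and 65.8 and 55.3 CPM in the basal libraries of the same stages. No luminal stage overlapped another, and all luminal libraries lay above all basal ones. The luminal level rose 3.59-fold from virgin to pregnant mice (log2 change 1.84, SE 0.15, adjusted p = 8.88e-07) and 2.24-fold from pregnancy to lactation (1.16, SE 0.15, adjusted p = 3.59e-05). Per kilobase Xbp1 ranked first of the 42 genes in lactating luminal cells, at 669 CPM, ahead of Ssr4 (650) and Hspa5 (628), and at rank 3 in pregnant ones. The basal decrease (-0.41, adjusted p = 0.0352) was lost without basal virgin replicate 2 (-0.28, adjusted p = 0.218) or basal lactating replicate 2 (-0.29, adjusted p = 0.229).

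Ern1, which encodes the enzyme that splices Xbp1 mRNA, measured 46.5 and 46.4 CPM (virgin), 34.7 and 35.4 (pregnant) and 22.5 and 21.3 (lactating) in luminal libraries, against 42.8 and 38, 42 and 36, and 28.8 and 21.2 in basal ones. It fell in both cell types from virgin to lactating mice, by 1.09 in luminal (SE 0.14, adjusted p = 2.64e-05) and by 0.69 in basal cells (SE 0.14, adjusted p = 0.00129), and the 2 decreases were not separable (difference -0.39, SE 0.20, adjusted p = 0.119). The first luminal step (-0.41, adjusted p = 0.0258) was lost without any 1 of the 4 libraries compared (adjusted p 0.0682 to 0.0872). Ern1 and Xbp1 thus changed in opposite directions in luminal cells, and per kilobase Ern1 was the lowest of the 42 genes in lactation, at 5.5 CPM.

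Eif2ak3, which encodes PERK, measured 46.5 and 41.9, 100 and 79.4, and 79.4 and 70.5 CPM in luminal and 15.4 and 11.4, 10.5 and 5.73, and 4.84 and 6.39 CPM in basal libraries. It rose in luminal cells by 1.03 from virgin to pregnant mice (SE 0.21, adjusted p = 0.00182) and the later step did not pass the test (-0.26, SE 0.21, adjusted p = 0.34). The luminal increase from virgin to lactating mice (0.76) was lost without luminal virgin replicate 2 (adjusted p = 0.0542). The cell types differed 3.3-fold in virgin and 13.3-fold in lactating mice.

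Atf6 measured 78.9 and 81.5, 118 and 115, and 133 and 113 CPM in luminal and 64.2 and 82.2, 120 and 124, and 71 and 59.2 CPM in basal libraries. In pregnancy it was higher than in virgin mice in both cell types (luminal 0.54, adjusted p = 0.00468; basal 0.73, adjusted p = 0.00129). From pregnancy to lactation the basal level fell by 0.90 (SE 0.13, adjusted p = 0.000402), while the luminal change of 0.08 did not pass the test.

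**Figure D4:**
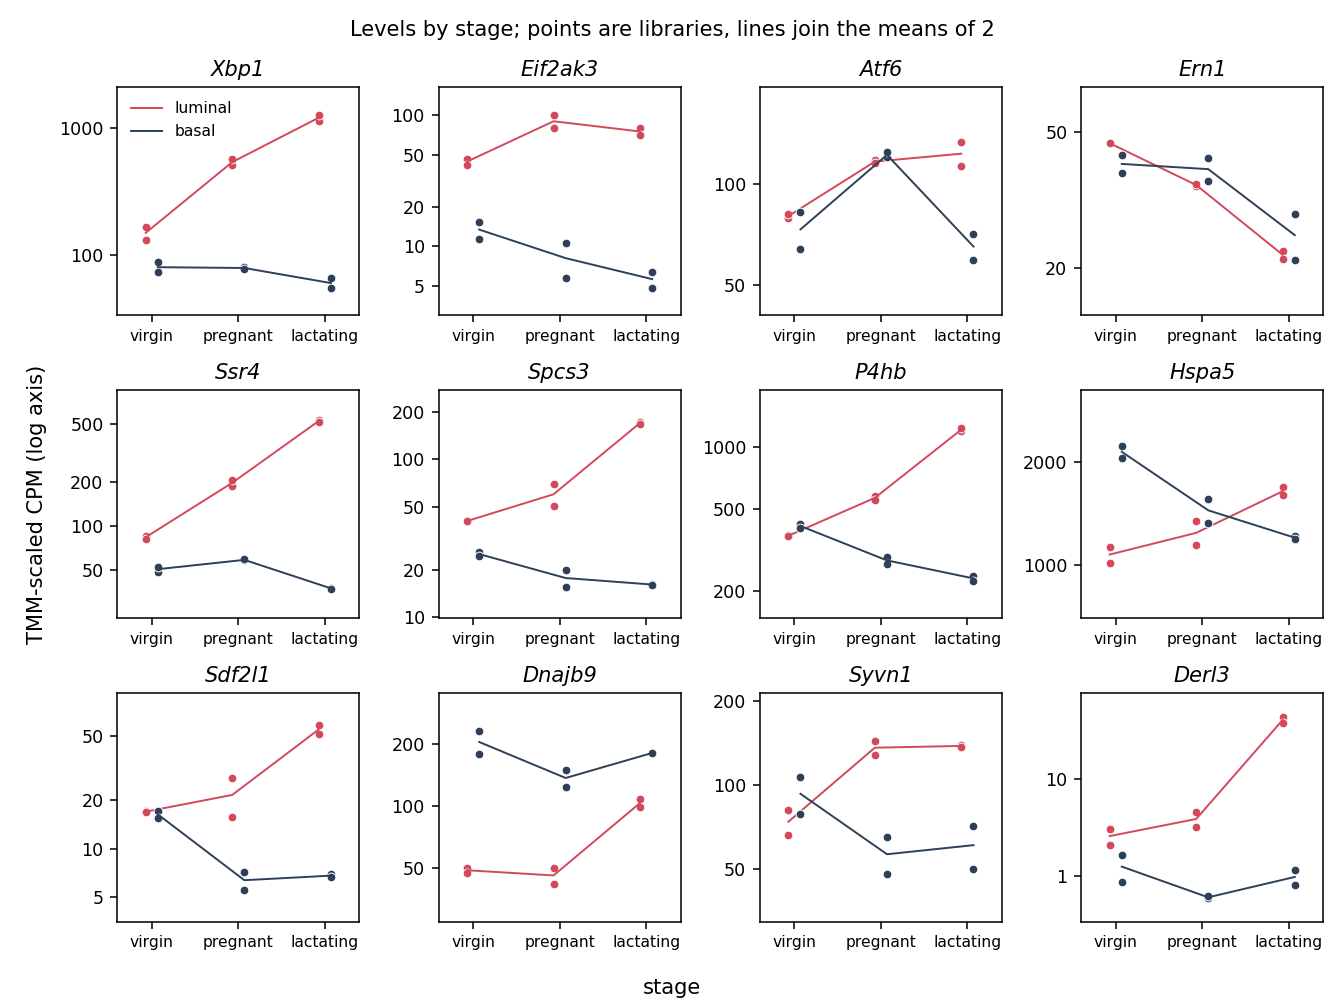
TMM-scaled CPM (log axis, own scale in each panel) of 12 of the genes in virgin, pregnant and lactating mice, with 1 point per library and lines joining the means of 2 luminal (red) or basal (dark) libraries. On this scale Xbp1, Ssr4 and P4hb climb at each luminal stage, Derl3 climbs at the last one, Ern1 falls in both cell types, and the lines of Hspa5 cross.

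The 2 steps of the luminal increase differed by role. From virgin to pregnant mice 22 of 42 genes rose and 2 fell (Sel1l and Ern1), against 21.8% of all genes called higher and 24.1% lower, and 13 of the 22 were translocation genes and 4 were folding genes. From pregnancy to lactation 31 rose and 2 fell (Pdia3 and Ern1), against 23.7% and 24.6% of all genes, with 16 of 16 translocation and 9 of 15 folding genes among the 31. Of the 42 genes 18 rose at both steps, 12 at the second only and 4 at the first only. The 4 comprised Syvn1, Eif2ak3 and Atf6 along with Calr. Under library size alone the first step had 6 genes called higher and 8 lower and the second 4 higher and 20 lower, so the directions of the steps, too, are relative to the bulk of genes.

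**Figure D5:**
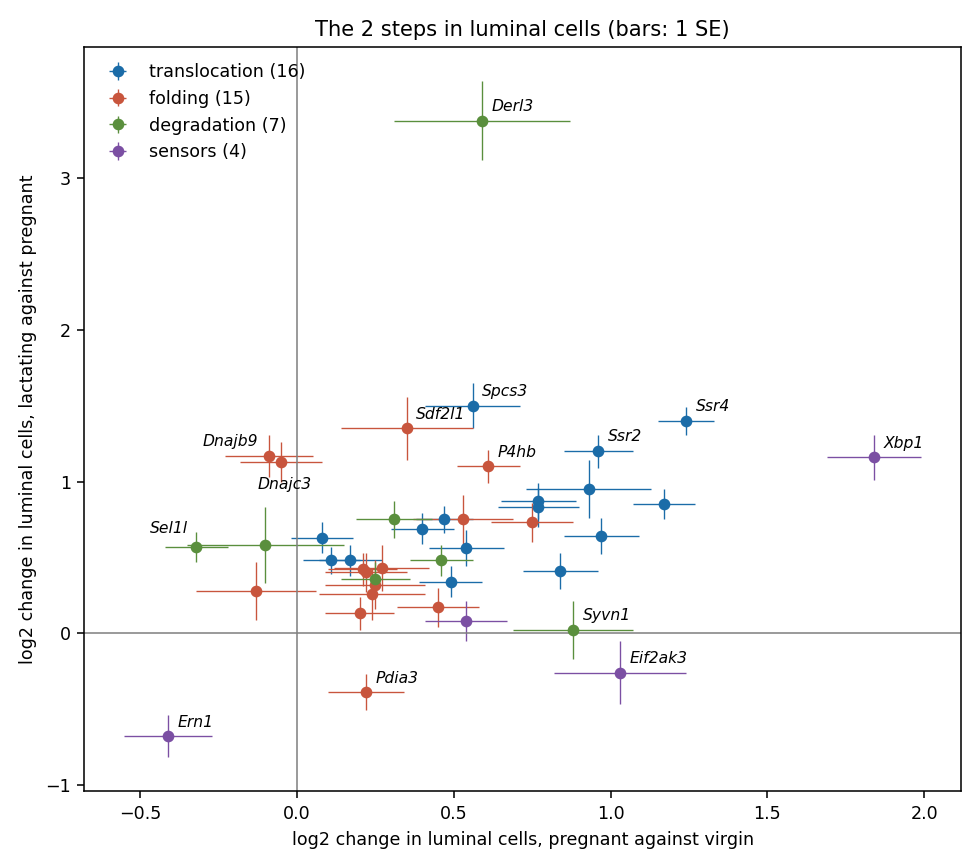
Log2 change in luminal cells from virgin to pregnant mice (horizontal axis) against that from pregnancy to lactation (vertical axis) for the 42 genes, coloured by role, with bars of 1 SE. Xbp1 has the largest first step (1.84) and Derl3 the largest second one (3.38), Syvn1 and Eif2ak3 lie to the right near or below 0, and Ern1 is negative at both steps. With library size alone the medians of the 42 genes are -0.05 and -0.29.

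Basal cells moved the other way. From virgin to lactating mice 4 of the 42 genes rose (Srp14, Edem1, Sel1l and Derl2) and 24 fell, with a median log2 change of -0.42, while 23.7% of all genes were called higher and 23.7% lower. From virgin to pregnant mice 4 rose and 10 fell (15.6% and 14.4% of all genes), and from pregnancy to lactation 3 rose and 13 fell (15.7% and 17.4%). These step counts rested on single libraries. The 10 became 5 without basal virgin replicate 1 and 2 without basal pregnant replicate 2, and the 13 became 5 without basal pregnant replicate 1, 8 without basal lactating replicate 1 and 4 without basal lactating replicate 2. The 4 genes higher in lactating than in virgin mice became 2 without basal virgin replicate 2 or basal lactating replicate 2.

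Markers of other cells moved with stage in both cell types. The 6 endothelial markers summed to 218 and 357 CPM (virgin), 78.8 and 103 (pregnant) and 94.2 and 113 (lactating), and the 6 fibroblast markers to 158 and 225, 615 and 788, and 395 and 457 CPM in basal libraries. Most of the fibroblast sum in pregnant and lactating basal libraries was Dcn (by stage 54.2 and 89, 434 and 580, and 316 and 271 CPM), while Pdgfra went from 3.1 and 5.07 CPM in virgin to 1.21 and 1.01 in lactating mice and Dpt from 6.92 and 6.24 to 2.29 and 2.11. In luminal libraries the fibroblast sum was 225 and 378 CPM in virgin and 42.7 to 105 CPM in later stages. Most of this fall was Dcn, from 346 and 170 CPM in virgin to 8.79 and 12.9 in lactating luminal libraries. Pdgfra was also lower in lactating luminal libraries, and Dpt overlapped. Lum, Col1a1 and Col3a1 were higher there than in virgin ones (Col3a1 at 53.2 and 57.8 against 15.8 and 26.4 CPM). The 6 leukocyte markers summed to 4.45 and 4.8, 6.82 and 8.73, and 0.965 and 1.7 CPM in basal and 1.75 and 2.19, 4.39 and 5.72, and 4.97 and 5.38 CPM in luminal libraries. Endothelial markers also fell in luminal libraries, from 49.8 and 75 CPM to between 14.6 and 22.4 CPM, and 5 of 6 were called lower from virgin to lactating mice in each cell type. None of the 6 endothelial or 6 fibroblast markers was at 0 in both libraries of a group. The part of these cells in the luminal and basal changes was not tested. Plasma cells, which are rich in this machinery, left almost no trace in luminal libraries, where their 6 markers summed to at most 0.303 CPM and Tnfrsf17 had 0 counts. In basal libraries the sum was 2.36 and 3.25 CPM in virgin and between 10.4 and 14 CPM in later stages. Pou2af1 measured 1.46 and 1.55 (virgin), 6.23 and 11 (pregnant) and 10.8 and 10.3 CPM (lactating). Igkc, an immunoglobulin transcript, measured 0.626 and 1.32, 4.76 and 2.6, and 0.0897 and 0 CPM in the basal libraries of these stages.

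The difference between the cell types grew with stage. In virgin mice 15 of the 42 genes were higher in luminal than in basal cells and 8 lower, against 31.2% and 31.5% of all genes, so the higher count lay near the background. The numbers were 28 and 2 in pregnancy (33.9% and 35.9% of all genes) and 38 and 1 in lactation (35.4% and 39.2%), the 1 being Dnajb9. The median difference of the 42 genes was 0.10, 0.60 and 1.52 on the log2 scale. With the replicate block the lower count in lactation was 2, Herpud1 being the other gene. The lactating counts were 23 higher and 11 lower under library size alone.

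The change itself differed between the cell types in most genes. From virgin to lactating mice the luminal change exceeded the basal one in 39 of 42 genes and fell below it in 0, by the interaction term of the same fit, against 23.1% and 26.3% of all genes. The 3 genes without a call were Srp14 (0.21, adjusted p = 0.225), Sel1l and Ern1. For the first step the counts were 22 and 0 (14% and 16.7% of all genes) and for the second 33 and 0 (18.3% and 18%). The differences of Spcs1 (0.47) and Herpud1 (1.21) were lost without 1 library, Spcs1 without luminal virgin replicate 2 (adjusted p = 0.066) or basal lactating replicate 2 (0.0532) and Herpud1 without luminal lactating replicate 1 (0.78, adjusted p = 0.0682). Under library size alone 15 genes were higher and 9 lower from virgin to lactating mice.

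Other genes of the pathway, listed apart from the 42, were mostly higher in lactating than in virgin luminal cells under TMM scaling, and mostly lower under library size alone. Of 66 such genes 65 were tested, and from virgin to lactating mice 45 rose and 8 fell (26.7% and 33.5% of all genes), with a median log2 change of 0.64, against 10 higher and 43 lower with a median of -0.72 under library size alone. The further translocation genes had 5 of 8 higher, led by Sec11c, a catalytic subunit of the signal peptidase (3.35, SE 0.10), and Srprb, a subunit of the receptor of the signal recognition particle (2.12, SE 0.11). The oligosaccharyltransferase, which attaches glycans to entering proteins, had 9 of 10 genes higher and 1 lower, led by Magt1 (2.09, SE 0.14) and Ostc (2.04, SE 0.12). Further folding genes had 14 of 21 higher and 2 lower, led by the prolyl isomerase Fkbp11 (4.64, SE 0.15, a 25.0-fold increase) and the ER oxidase Ero1b (1.56, SE 0.15). Fkbp11 thus changed more than any of the 42 genes.

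Among further degradation genes 10 of 14 rose and 2 fell, led by Selenos (2.32, SE 0.20), a partner of the derlins, and Edem2 (2.21, SE 0.12), which trims mannose from glycoproteins. Of 12 further genes of stress signalling tested, 7 rose and 3 fell (26.7% and 33.5% of all genes), led by Creb3l1 (2.04, SE 0.18), a transcription factor activated by cleavage in the Golgi like ATF6, and Wfs1 (1.05, SE 0.11). The change of Wfs1 was -0.31 under library size alone. In basal cells 10 of the 65 genes rose from virgin to lactating mice and 13 fell, with a median of -0.05, and both counts are a smaller share than the 23.7% of all genes called higher and the 23.7% called lower.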

How the data were processed

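The authors deposited raw counts of reads by Entrez gene for each library, without normalisation, and the 12 single-library files held the same counts (0 differed). Per the submitters' processing notes the tools were featureCounts, Subread 1.4.4 and CASAVA 1.8.2 and the builds mm10 and GRCm38. Neither the strand setting nor the annotation version was stated there. Symbols and coordinates came from a RefSeq table of GRCm38.p6, in which 25275 identifiers matched. The largest exon overlap of the 42 genes with another gene was 16.3% (GENCODE vM21).

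Genes were kept by filterByExpr (minimum count 10, by group), which left 15969. Counts were scaled by TMM and tested with the quasi-likelihood F-test of edgeR 4.0.16 in R 4.3.3, with 6 group means over 12 libraries, so that the groups share 1 estimate of spread. Adjustment was by Benjamini-Hochberg over all genes tested, with calls at adjusted p below 0.05. An SE is the size of the log2 change over the root of F. The fits were tried on simulated data of 15306 genes. Changes were placed only in well-counted genes of the lactating luminal group, and every other gene kept the same share in all libraries. The simulated data thus held no shift of RNA composition like that of the milk transcripts, and the rates hold for that setting only. Of 100 simulated 2-fold changes 95 were recovered for luminal lactating against virgin and 65 for the difference of changes, and of 100 1.5-fold changes 53 and 5, with 9 and 7 calls among unchanged genes. In the simulated data a difference of changes of 1.5-fold was thus rarely recovered. In the counts themselves differences as small as 0.40 on the log2 scale (Edem1) passed the test. The share of such differences recovered in the counts was not tested.

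The 42 genes, their roles and the lists were chosen with earlier results of these data known. Named are all sensors, the 4 genes of each other role with the largest changes, those that moved in opposite directions in the cell types and the 2 leading genes of each further list. Genes named beyond the rule were chosen after their values were seen. Alternatives were DESeq2 1.42.0, other scalings, no filter, a minimum fold of 1.5, fits of 1 cell type, replicate blocks and leaving out each library.

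The labels give libraries the numbers 1 and 2 but do not tie a number to a mouse. Within a stage, deviations of luminal and basal libraries of the same number correlated (r = 0.251 virgin, 0.325 pregnant, 0.156 lactating). This was over 9197 genes with a mean of at least 10 CPM, against -0.25 to 0.136 in other pairs of groups. The lactating value lay close to the highest of those. The numbers were taken as pairs only in the block by mouse, and the main fit used no pairing. Replicates were not duplicates of 1 library (chi-square per degree of freedom 9.37 to 29.3). Counting error alone does not describe PCR reads without molecular identifiers.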

Additional observations from a re-analysis of the deposited data

Results flagged for a closer look

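The changes from virgin to lactating mice differed between luminal and basal cells in 39 of the 42 genes, by the interaction term of the edgeR fit over all 15969 genes tested. The values below are the luminal minus the basal log2 change, and all 39 were above 0.

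Of the translocation genes, 15 of 16 differed, namely Srp9 (1.30), Srp68 (1.44), Srp72 (1.10), Sec61a1 (2.09), Sec61b (2.16), Sec61g (1.70), Sec62 (0.50), Sec63 (1.05), Ssr1 (2.26), Ssr2 (2.61), Ssr3 (1.64), Ssr4 (3.07), Spcs1 (0.47), Spcs2 (1.27) and Spcs3 (2.70). All 15 folding genes differed, namely Hspa5 (1.46), Hsp90b1 (1.15), Calr (1.44), Canx (0.66), Pdia3 (0.57), Pdia4 (1.31), Pdia6 (1.68), P4hb (2.56), Dnajb9 (1.26), Dnajb11 (1.99), Dnajc3 (1.02), Hyou1 (1.41), Sdf2l1 (2.96), Manf (1.90) and Creld2 (1.43). Of the degradation genes, 6 of 7 differed, namely Herpud1 (1.21), Edem1 (0.40), Syvn1 (1.52), Derl1 (0.84), Derl2 (0.65) and Derl3 (4.30). Of the sensors, 3 of 4 differed, namely Eif2ak3 (2.02), Atf6 (0.79) and Xbp1 (3.42).

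The values ran from 0.40 (Edem1) to 4.30 (Derl3). Milk protein transcripts made up 51.2% and 49.9% of lactating luminal counts and at most 0.755% of basal ones, and scaling by library size alone moved the median of all genes in this comparison by -1.15 on the log2 scale. Under that scaling 15 genes were called higher and 9 lower. The part of RNA composition in the differences is given only by these scalings.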

How the results depend on the processing

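Scaling by library size alone reversed 28 of the 52 changes of named genes from virgin to lactating luminal cells, 2 of 7 from pregnant to lactating and 0 of 6 from virgin to pregnant ones, while DESeq2 and RLE size factors left every count of called genes within 1.5 times and reversed no value. Library size alone moved the median of all genes by -0.50, -0.85 and -1.36 in luminal cells (pregnant against virgin, lactating against pregnant, lactating against virgin) and by -0.99 between the lactating cell types. With it 6 genes were called higher and 8 lower from virgin to pregnant luminal cells, 4 and 20 from pregnant to lactating and 8 and 21 from virgin to lactating ones. In basal cells 1 was called higher and 16 lower from virgin to pregnant, 1 higher from pregnant to lactating and 1 higher from virgin to lactating mice. Between the cell types 5 were called lower in virgin, 8 lower in pregnant and 23 higher and 11 lower in lactating mice, and for the difference of changes 11 and 5, 7 and 7, and 15 and 9.

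Luminal medians reversed with library size alone were, from virgin to pregnant mice, -0.05 for all 42, -0.25 for folding and -0.19 for degradation, from pregnant to lactating -0.29 for all 42, -0.13 for translocation, -0.44 for folding and -0.29 for degradation, and from virgin to lactating -0.36, -0.73 for folding and -0.46 for degradation. The median difference of changes became 0.00 for all 42 from pregnancy to lactation and -0.31 for degradation from virgin to lactating mice. Reversed from virgin to lactating luminal cells were Srp9 -0.11, Srp14 -0.70, Srp68 -0.14, Srp72 -0.53, Sec62 -0.77, Sec63 -0.26, Spcs1 -0.65, Spcs2 -0.25, Hspa5 -0.74, Hsp90b1 -0.79, Calr -0.74, Canx -1.03, Pdia4 -0.66, Pdia6 -0.73, Dnajb9 -0.28, Dnajc3 -0.29, Hyou1 -1.21, Manf -0.07, Creld2 -0.86, Herpud1 -0.88, Edem1 -0.42, Sel1l -1.11, Syvn1 -0.46, Derl1 -0.74, Derl2 -0.30, Eif2ak3 -0.60, Atf6 -0.74 and Wfs1 -0.31. Reversed in the difference of changes were Srp72 -0.05, Sec62 -0.65, Sec63 -0.10, Spcs1 -0.68, Hsp90b1 0.00, Canx -0.49, Pdia3 -0.58, Dnajc3 -0.13, Edem1 -0.75, Derl1 -0.31, Derl2 -0.50, Atf6 -0.37 and Srp14 -0.94. From pregnant to lactating luminal cells Atf6 became -0.78 and Sel1l -0.29, and between lactating cell types Atf6 became -0.08, Hspa5 -0.54, Hsp90b1 -0.55, Calr -0.24 and Canx -0.67.

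Library size without milk protein genes reversed the luminal changes of Canx (-0.04), Hyou1 (-0.21), Sel1l (-0.12) and, from pregnancy to lactation, Atf6 (-0.09). It gave 2 genes lower from virgin to lactating luminal cells, 1 higher and 16 lower from virgin to pregnant basal cells, 1 higher at the second basal step, 1 higher from virgin to lactating basal cells, 5 lower in luminal than basal virgin cells and 1 lower (Ern1) in the difference of changes.

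A minimum fold of 1.5 left 7 higher and 0 lower at the first luminal step, 11 and 0 at the second and 23 higher from virgin to lactating cells. In basal cells it left 0 and 1, 0 and 0, and 0 and 5, between cell types 4 and 3 in virgin and 18 higher in pregnant mice, and in the difference of changes 11 and 17 higher at the 2 steps. Without a low-count filter 2 genes were lower in lactating luminal than basal cells. Fits of 1 cell type gave 1 higher from pregnant to lactating and 2 higher from virgin to lactating basal cells.

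The replicate block, and the block by mouse, gave 2 genes lower in lactating luminal than basal cells, and apart from Herpud1 and Sel1l the pairing changed no call of a named gene.

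Without 1 library the numbers of genes higher and lower ran from 19 to 26 and 0 to 2 from virgin to pregnant luminal cells, 26 to 35 and 1 to 2 from pregnant to lactating luminal cells, 34 to 38 and 1 to 1 from virgin to lactating luminal cells, 1 to 5 and 2 to 13 from virgin to pregnant basal cells, 1 to 4 and 4 to 14 from pregnant to lactating basal cells, 2 to 4 and 17 to 24 from virgin to lactating basal cells, 14 to 15 and 6 to 8 between virgin cell types, 24 to 29 and 2 to 3 between pregnant cell types, 36 to 38 and 1 to 2 between lactating cell types, 17 to 26 and 0 to 0 for the first step of the difference of changes, 27 to 33 and 0 to 0 for its second step, 37 to 39 and 0 to 1 from virgin to lactating. Reversals among values that had not passed the test were Atf6 from pregnant to lactating luminal cells (-0.01 without luminal lactating replicate 1, range to 0.22), Atf6 between virgin cell types (-0.04 without basal virgin replicate 1, range to 0.32), Ern1 between lactating cell types (0.05 without basal lactating replicate 1, range from -0.40) and Ssr3 in basal cells (0.08 without basal virgin replicate 2, range from -0.16). Also reversed was the basal degradation median (0.16 without basal virgin replicate 2). Beyond the construction of each scaling the cause was not tested. With 2 libraries per group, a change that missed the threshold may be too small to be seen.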
